A study of Mus musculus with 12 samples.

Results

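The comparison described here is the difference between the response of TFEB-ERT2 lymphoma cells to 4-hydroxytamoxifen (4-OHT) and the response of Vector lymphoma cells to the same compound. It uses all 12 libraries of the study, and it was computed for each of the 13111 genes, of 23479 listed, that reached a normalized read count of at least 10 in at least 3 libraries. Both cell populations came from 1 B cell lymphoma of a C57BL/6 mouse carrying the transgenes Eµ-Myc and Eµ-rtTA, in which the immunoglobulin heavy chain enhancer Eµ drives Myc and the tetracycline-controlled activator. The lymphoma, labelled as lymph node in origin, was kept in culture with IL-7 and carried either an empty retrovirus with puromycin resistance (Vector) or a retrovirus with TFEB, mutated from serine to alanine at residue 211, fused to ERT2. Cells received vehicle or 4-OHT for 4 days, which gave 4 groups of 3 replicates: Vector vehicle, Vector 4-OHT, TFEB-ERT2 vehicle and TFEB-ERT2 4-OHT. The 4-OHT dose is 250 nM in the protocols but 250 ng/mL in the design text, so its unit is uncertain. Nothing in the labels ties replicates to separate cultures, and all cells descend from 1 tumour, so the p-values speak of the spread among these 12 samples, which may be technical.

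TFEB is a basic helix-loop-helix leucine zipper transcription factor that binds E-box-like DNA elements upstream of lysosome and autophagy genes. When amino acids are plentiful, mTORC1 on the lysosome phosphorylates TFEB, which then stays in the cytoplasm; the mutated serine is one of the sites it uses. ERT2, a mutant form of the part of the human estrogen receptor that binds hormone, holds a fusion protein inactive until 4-OHT is bound. The Vector cells received 4-OHT without the fusion, so subtracting their response takes away what the compound did in cells that lack it. The subtraction alone does not tell from which level each line started.

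Libraries held 11849029 to 22109283 reads over genes, and 11390 to 19250 genes had at least 1 read. The libraries labelled B cell lymphoma carried B cell markers throughout: Cd79a, a chain of the B cell receptor complex, had 6833 to 9223 normalized counts over the 12 libraries, and Igll1, the surrogate light chain of precursor B cells, had 3522 to 14455. Of the markers of other cells, the T cell gene Cd3e reached 20.2 in its highest library, the macrophage gene Csf1r 37.7, the myeloid integrin Itgam 77.4, the stromal collagen Col1a1 67.1 and the erythroid gene Gata1 12.9. Pecam1, an endothelial marker that blood cells also carry, was not low, with 648 to 908 over the 12 libraries. Ms4a1 (CD20), a marker of mature B cells, was at 0 in 9 of 12 libraries. The libraries Vector 4-OHT 2, TFEB-ERT2 vehicle 3 and TFEB-ERT2 4-OHT 2 stood apart on the first principal component of all tested genes. With only genes of a mean of at least 200 normalized counts, they lay near their own groups on that component, at −14.8, −9.01 and 45.7. They also held the fewest reads, at 13709440, 11849029 and 12251456. Why they stood apart was not tested. In these 3 libraries the median stroma, endothelium and melanocyte marker lay 2.80, 3.00 and 4.49 log2 units above the Vector vehicle mean, against −0.90 to 1.69 in the other 9, and counts are therefore also given without them. Tfeb itself (chr17:47737030-47792419, GRCm38) checks the labels: it had 252, 255 and 223 normalized counts in Vector vehicle, 231, 195 and 238 in Vector 4-OHT, 1597, 1955 and 1476 in TFEB-ERT2 vehicle, and 702, 581 and 711 in TFEB-ERT2 4-OHT. All 6 TFEB-ERT2 libraries lay above all 6 Vector libraries, and within TFEB-ERT2 cells the 4-OHT libraries lay below the vehicle libraries. Counts do not separate the transgene from the cell's own Tfeb.

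The response difference of a gene is the log2 response to 4-OHT in TFEB-ERT2 cells minus the log2 response in Vector cells, on log2(normalized count + 1). It passed the threshold of limma's moderated test (Benjamini-Hochberg adjusted p under 0.05 over all tested genes) for 2066 genes, 15.8% of those tested. Of these, 1016 (7.75% of tested genes) responded more positively in TFEB-ERT2 cells and 1050 (8.01%) more negatively, and 780 differed at least 2-fold. The TFEB-ERT2 response itself passed for 3611 genes (27.5%) and the Vector response for 2 genes (0.0153%), with 822 Vector genes at an unadjusted p under 0.05. For the Vector response edgeR called 0 genes with 1009 at an unadjusted p under 0.05, DESeq2 called 48, and limma without the 3 libraries that stood apart called 57. RNA was taken from bulk cultures, so fewer cells of a kind and less RNA per cell cannot be told apart.

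**Figure D1:**
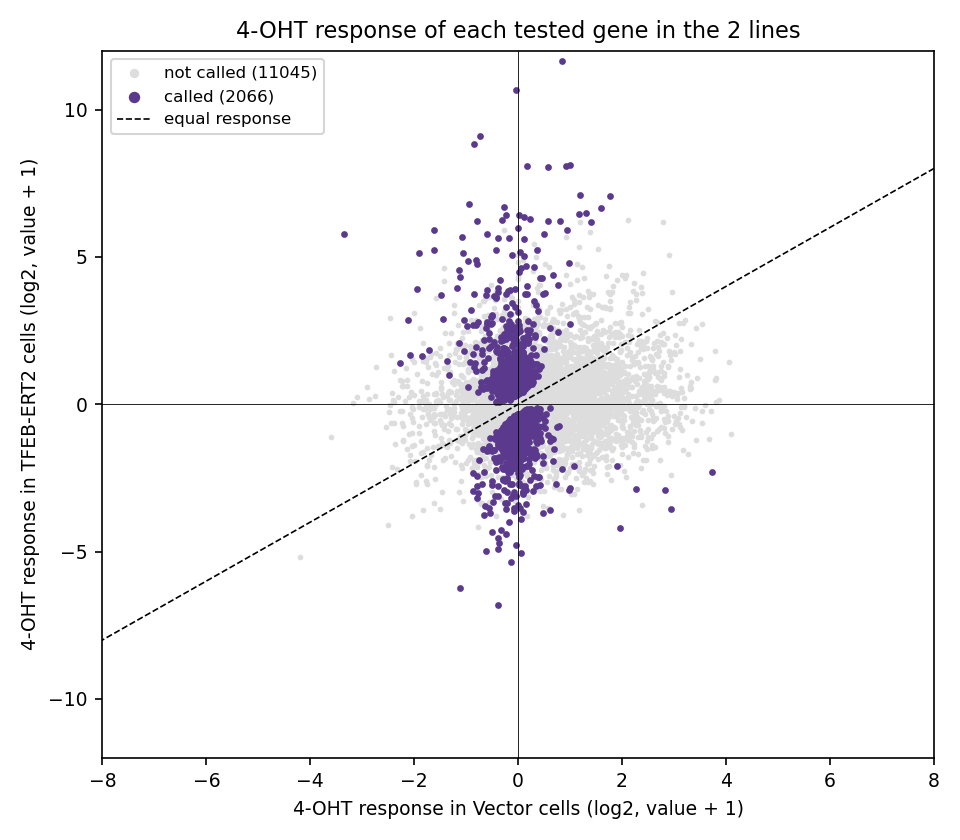
Each point is 1 of 13111 tested genes, with the log2 response to 4-OHT of Vector cells on the horizontal axis and that of TFEB-ERT2 cells on the vertical axis, and the dashed line marks equal responses. The 2066 genes that passed the test for the response difference lie away from that line, mostly spread along the vertical axis.

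Of the 2066 genes, 1990 also passed the test for a TFEB-ERT2 response and none passed for a Vector response. The response difference contains the TFEB-ERT2 response, so the first overlap is partly built in. A further 1621 genes passed for the TFEB-ERT2 response but not for the difference. The estimate of a difference between responses is less exact than that of either response, because it carries the error of all 4 group means: its median standard error over tested genes was 0.268 on the log2 scale, against 0.189 for a comparison of 2 groups. In 1719 of the 2066 genes the 3 TFEB-ERT2 4-OHT libraries lay outside the range of the other 9, which was also so in 3052 of all 13111 tested genes. The whole-read tests gave 1940 genes with edgeR and 2645 with DESeq2, and without the 3 libraries that stood apart limma gave 1711.

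Genes were then divided by where the lines started, that is, by TFEB-ERT2 vehicle against Vector vehicle. The start differed for 705 genes (5.38% of those tested), 379 higher (2.89%) and 326 lower (2.49%) in TFEB-ERT2 cells. A start was called like when it did not pass that test and the 95% interval of the start difference lay within 2-fold in either direction, and undecided when the interval was wider. Of the 2066 genes, 1574 (76.2%) had like starts, 304 (14.7%) unlike starts and 188 undecided starts. By the same division all tested genes comprised 7875 with like, 705 with unlike and 4531 with undecided starts. The start and the response difference share the 6 vehicle libraries, so an error there moves them in opposite directions, and the division is a description with no test of its own. It also depends on expression: the median level of the called genes was 1310 normalized counts in the like class and 121 in the undecided class. The classes do not order genes by the size of the start difference alone. Its median absolute value among called genes was 0.14 on the log2 scale in the like class and 0.558 in the unlike class, within the 2-fold margin. Pcyt1a was unlike with a 1.32-fold start difference, whereas Bcar3 was like with 1.46-fold (limma adjusted p = 0.0603).

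**Figure D2:**
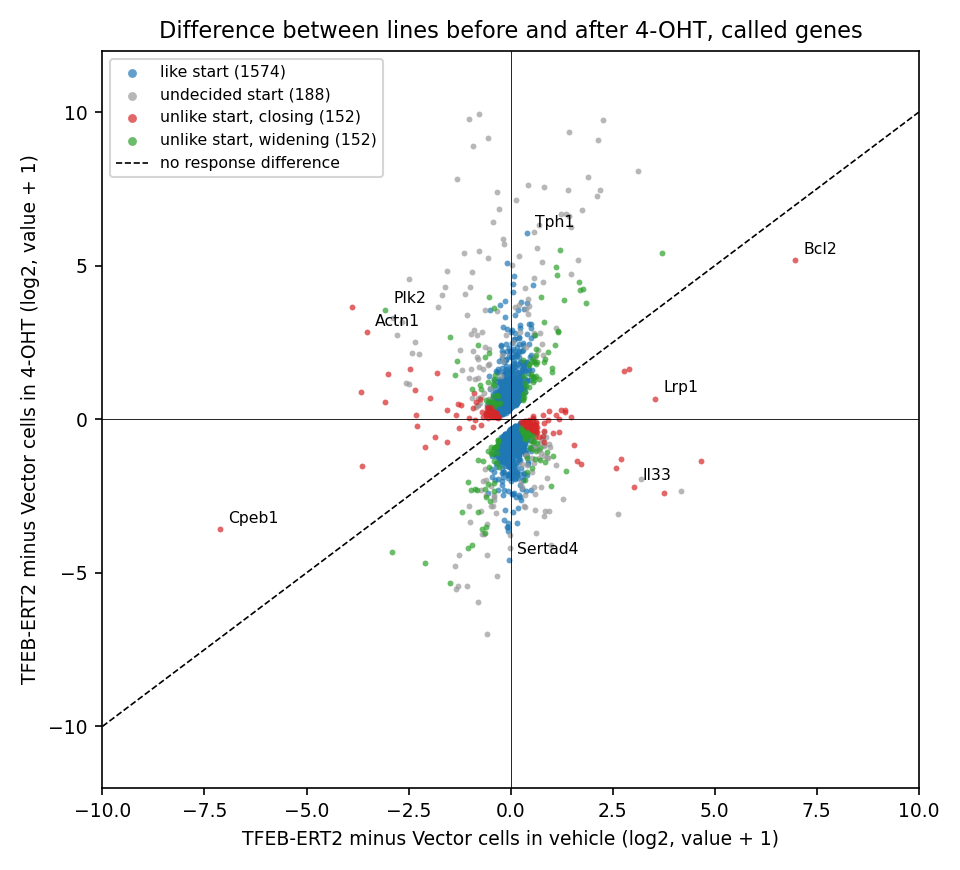
Each point is 1 of the 2066 genes with a called response difference, with the log2 difference between lines (TFEB-ERT2 minus Vector) in vehicle on the horizontal axis and in 4-OHT on the vertical axis, by start class, and the dashed line marks no response difference. The 1574 genes with like starts form a vertical band around 0, and Il33, Actn1 and Bcl2 lie far to its sides.

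Of the 705 tested genes with unlike starts, 424 had lines that were closer together in 4-OHT than in vehicle (closing). The other 281 had lines that were farther apart (widening). The response difference was called for 152 closing genes (35.8% of 424) and 152 widening genes (54.1% of 281). Among the 152 called closing genes 112 no longer passed the test between lines in 4-OHT. Of these 112, 70 had started higher and 42 lower in TFEB-ERT2 cells. A further 32 closing genes had crossed and passed on the other side, and 8 remained on the side where they started. Among the 152 called widening genes 86 moved farther on the side where they started and 66 crossed from 1 side of the Vector level to the other. The crossing genes include 36 that had started higher and 30 that had started lower.

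Tph1, the gene for a rate-limiting enzyme of serotonin synthesis (chr7:46644641-46672537), had the largest positive response difference among genes with like starts and a mean of at least 100 normalized counts, the limit that also applies to the other genes ranked in the start classes. Its normalized counts were 131, 215 and 258 in Vector vehicle, 158, 165 and 114 in Vector 4-OHT, 367, 254 and 178 in TFEB-ERT2 vehicle, and 10471, 9797 and 8791 in TFEB-ERT2 4-OHT. Only the TFEB-ERT2 4-OHT libraries were high, and the range of Vector vehicle overlapped both other groups. The response difference was 5.67 ± 0.30 (log2, SE, n = 3 per group; limma adjusted p = 4.08e-15). Mxd1 (chr6:86647042-86669161), which encodes a MAX partner that opposes MYC at E-boxes, was also high in TFEB-ERT2 4-OHT alone, with 274, 350 and 298 in Vector vehicle, 240, 229 and 246 in Vector 4-OHT, 289, 441 and 274 in TFEB-ERT2 vehicle, and 6570, 5597 and 6178 in TFEB-ERT2 4-OHT. Its response difference was 4.58 ± 0.22 (limma adjusted p = 3.04e-16). The other genes among the 10 largest of this class were Trf (transferrin, 5.19), Prodh (proline dehydrogenase, 4.34), Cd69 (a lymphocyte activation antigen, 4.08), Ccr7 (the receptor that guides lymphocytes into lymph nodes, 4.04), Mreg (melanoregulin, 3.99), Rhobtb2 (3.98), Bcar3 (3.82) and Myzap (3.55). Trf was uneven in Vector 4-OHT, at 110, 216 and 18.6, and that spread is carried into its standard error of 0.59.

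Sertad4 (chr1:192844488-192855756) had the largest negative response difference among genes with like starts and a mean of at least 100. It had 1036, 1180 and 1107 normalized counts in Vector vehicle, 862, 1011 and 708 in Vector 4-OHT, 1183, 1265 and 816 in TFEB-ERT2 vehicle, and 23.7, 27.1 and 64.0 in TFEB-ERT2 4-OHT. The last group lay below all other libraries, and the response difference was −4.53 ± 0.33 (limma adjusted p = 5.47e-12). Id3, an inhibitor of E protein transcription factors in lymphocytes (chr4:136143497-136145755), had 704, 795 and 932, then 878, 796 and 799, then 820, 682 and 798, then 91.5, 51.6 and 59.2 in the same order of groups. The first 3 groups overlapped and the last lay below them, and the response difference was −3.56 ± 0.25 (limma adjusted p = 2.84e-12). The list continued with Sema5b (a semaphorin, −3.52), Tmem132e (−3.45), BC035044 (−3.42), Car3 (a carbonic anhydrase, −3.30), Rag1 (a subunit of the V(D)J recombinase, −3.11), Crhbp (which binds corticotropin-releasing hormone, −3.08), Ddc (aromatic amino acid decarboxylase, −3.07) and Sytl2 (−2.89).

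**Figure D3:**
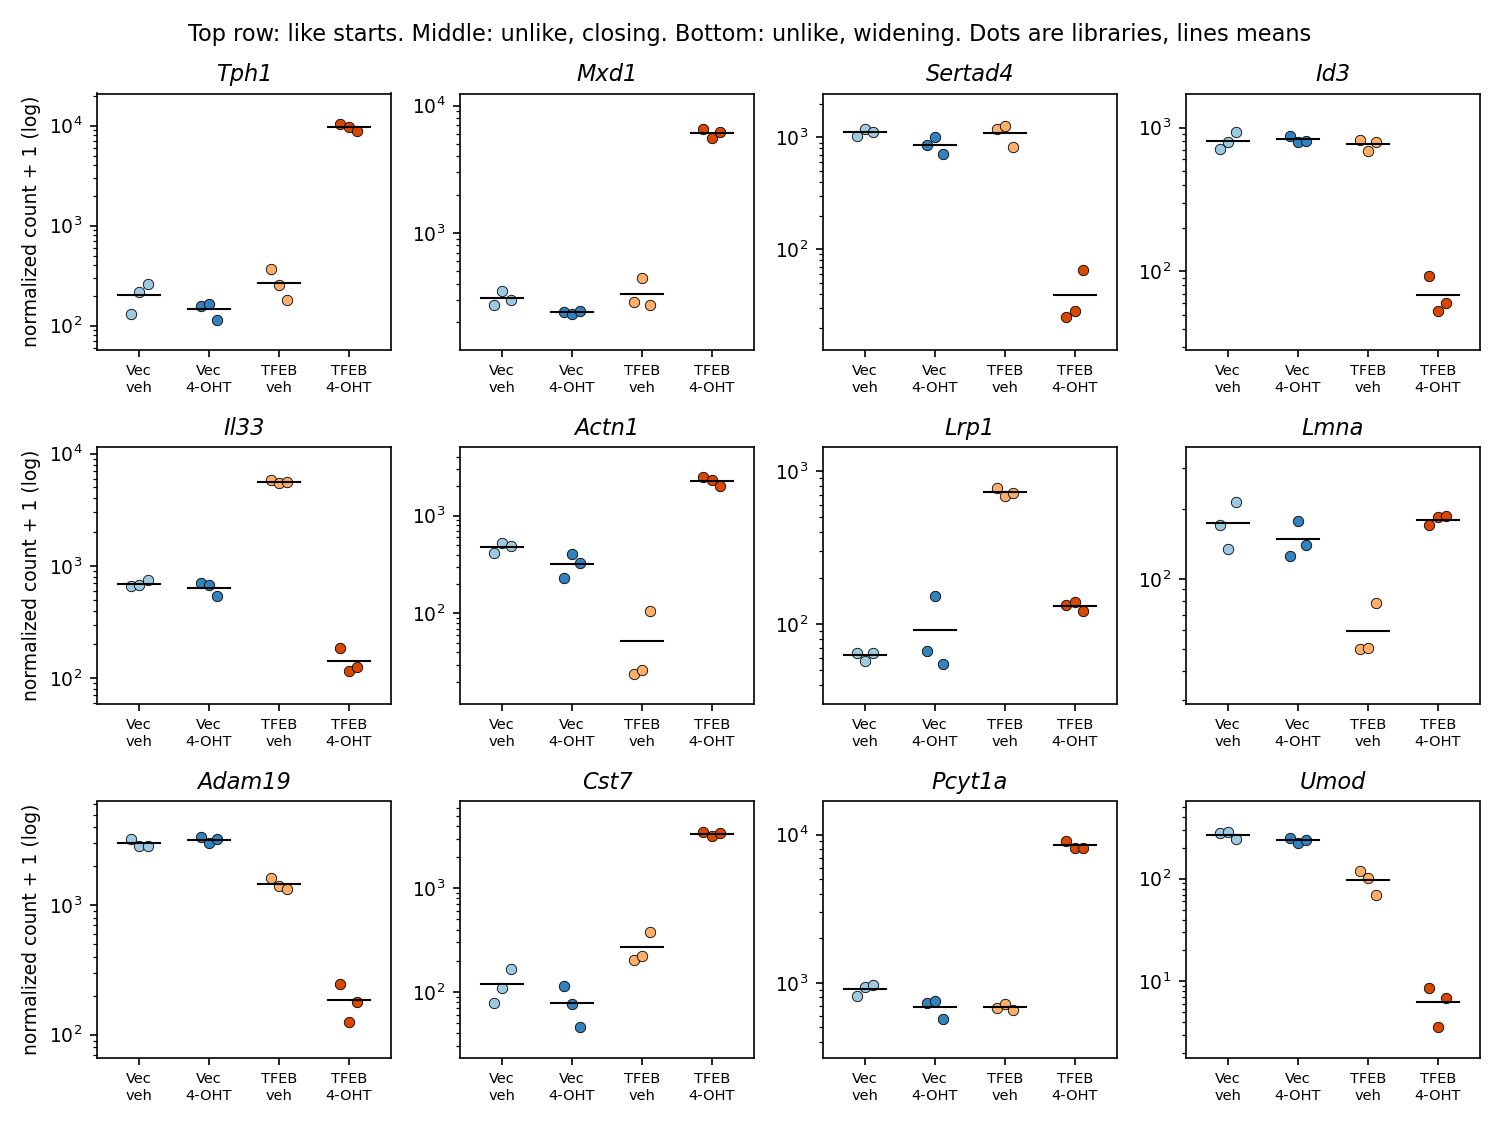
Normalized count + 1 (log axis) in each of the 12 libraries for 12 genes, with 3 points per group and a line at the group mean; rows hold genes with like, closing and widening starts. The 3 groups other than TFEB-ERT2 4-OHT sit together in the first row, and the 2 vehicle groups sit apart in the other rows.

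The promoters of 3 genes with like starts and positive response differences are shown because each holds the 8-base E-box TCACGTGA, a letter sequence known from lysosomal gene promoters. Osbpl8, an oxysterol-binding protein family member, and Gla, the lysosomal alpha-galactosidase, were chosen after their values were seen, and Ctsd is the lysosomal protease cathepsin D. Each sequence runs from 250 bases before to 50 bases after the start in the RefSeq promoter table (GRCm38.p6), is written 5′ to 3′ on the gene's strand, and has TCACGTGA in capitals. Coordinates are chr10:111164552-111164851 (plus strand) for Osbpl8, chrX:134600956-134601255 (minus strand) for Gla and chr7:142387778-142388077 (minus strand) for Ctsd.
Osbpl8: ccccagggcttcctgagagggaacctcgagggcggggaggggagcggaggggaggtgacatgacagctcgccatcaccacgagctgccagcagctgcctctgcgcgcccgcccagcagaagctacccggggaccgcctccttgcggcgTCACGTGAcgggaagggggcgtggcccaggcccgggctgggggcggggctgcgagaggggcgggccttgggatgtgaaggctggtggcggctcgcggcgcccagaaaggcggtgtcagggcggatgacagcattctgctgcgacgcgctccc
Gla: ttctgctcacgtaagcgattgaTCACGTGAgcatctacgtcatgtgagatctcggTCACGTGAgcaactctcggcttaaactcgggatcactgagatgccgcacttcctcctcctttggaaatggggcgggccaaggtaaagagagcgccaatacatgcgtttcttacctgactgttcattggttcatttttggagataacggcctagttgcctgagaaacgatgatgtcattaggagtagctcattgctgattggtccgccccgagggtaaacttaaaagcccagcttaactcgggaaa
Ctsd: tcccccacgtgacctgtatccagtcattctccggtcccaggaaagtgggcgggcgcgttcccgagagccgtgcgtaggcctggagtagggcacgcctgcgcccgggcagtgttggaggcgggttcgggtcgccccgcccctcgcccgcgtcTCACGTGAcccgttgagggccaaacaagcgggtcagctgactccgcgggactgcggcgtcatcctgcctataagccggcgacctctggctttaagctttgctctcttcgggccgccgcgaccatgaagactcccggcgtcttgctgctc

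Osbpl8 had 5253, 5300 and 5104 normalized counts in Vector vehicle, 5624, 4878 and 5184 in Vector 4-OHT, 5144, 5874 and 4779 in TFEB-ERT2 vehicle, and 36565, 37181 and 38054 in TFEB-ERT2 4-OHT. The first 3 groups overlapped and the last was 7.10-fold above its vehicle, with a response difference of 2.83 ± 0.12 (limma adjusted p = 1.25e-17). Gla had 155, 172 and 128, then 126, 219 and 129, then 154, 125 and 232, then 662, 673 and 677 in the same order, with a response difference of 2.00 ± 0.35 (limma adjusted p = 7.99e-05). Ctsd had 490, 486 and 405, then 440, 453 and 369, then 505, 420 and 445, then 1155, 911 and 945, with a response difference of 1.26 ± 0.21 (limma adjusted p = 2.75e-05). The first base of the motif lay at −102 in Osbpl8, at −228 for the more distal of 2 copies in Gla, and at −99 in Ctsd.

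The motifs CACGTG, TCACGTGA (which contains CACGTG) and TCATGTG were searched on both strands of promoters of this length. A promoter could be matched for 627 of the 768 genes with like starts and positive response differences, and for 654 of the 806 with negative ones. CACGTG was present in 19.1% of the former, 10.4% of the latter and 7.15% of all 32851 promoters in the table. TCACGTGA was present in 4.63%, 1.22% and 0.974%, and TCATGTG in 4.63%, 1.83% and 3.77%. The whole table includes promoters of genes that were not expressed here. Of the tested genes 10271 could be matched, and these held CACGTG in 11.5%, TCACGTGA in 2.18% and TCATGTG in 2.76%. The match was 78.3% for tested genes and lower than 80% in the closing and widening classes, too few for a check over those sets, and no difference between these shares was tested. A match of letters is a description of the promoter and not a binding site.

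Il33, which encodes an alarmin cytokine of the interleukin-1 family (chr19:29925114-29960718), had the largest negative response difference among closing genes with a mean of at least 100. Its counts were 656, 672 and 753 in Vector vehicle, 700, 668 and 539 in Vector 4-OHT, 5831, 5504 and 5610 in TFEB-ERT2 vehicle, and 184, 114 and 124 in TFEB-ERT2 4-OHT. The lines were not level before treatment: TFEB-ERT2 vehicle stood 8.15-fold above Vector vehicle, and TFEB-ERT2 4-OHT 4.57-fold below Vector 4-OHT. The response difference was −5.22 ± 0.20 (limma adjusted p = 4.51e-18), and the 40.8-fold fall in TFEB-ERT2 cells began from that raised start. Actn1, an actin cross-linking alpha-actinin (chr12:80167547-80260371), was the reverse, with 416, 526 and 482, then 229, 407 and 323, then 23.1, 25.6 and 106, then 2457, 2287 and 2021 in the same order of groups. Its start was 11.5-fold lower and its end 7.21-fold higher in TFEB-ERT2 cells, and its response difference was 6.38 ± 0.45 (limma adjusted p = 2.44e-12).

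Some closing genes no longer passed the test between lines in 4-OHT, which does not make the lines equal there. Lrp1, an endocytic receptor of the LDL receptor family (chr10:127538161-127621148), had 64.2, 56.7 and 63.6 in Vector vehicle, 65.5, 152 and 54.1 in Vector 4-OHT, 781, 687 and 722 in TFEB-ERT2 vehicle, and 132, 139 and 120 in TFEB-ERT2 4-OHT. TFEB-ERT2 vehicle was high on its own, and the 2 4-OHT groups overlapped (log2 difference 0.67, limma adjusted p = 0.11), with a response difference of −2.88 ± 0.43 (limma adjusted p = 8.63e-06). That overlap rested on the value of 152 in Vector 4-OHT 2, a library that stood apart. The other Vector 4-OHT libraries, at 65.5 and 54.1, lay below every TFEB-ERT2 4-OHT library. Lmna, the gene of the nuclear lamins A and C, was lower in TFEB-ERT2 vehicle, at 48.8, 49.1 and 77.4 against 170, 134 and 213 in Vector vehicle, and in 4-OHT it had 169, 183 and 185 against 125, 177 and 139. Its 4-OHT groups overlapped (log2 difference 0.30, limma adjusted p = 0.545), and its response difference was 1.85 ± 0.43 (limma adjusted p = 0.00224). Atp6v1b2, a subunit of the proton pump that acidifies lysosomes, had 601, 735 and 803, then 696, 720 and 862, then 367, 318 and 223, then 594, 630 and 624 in the order Vector vehicle, Vector 4-OHT, TFEB-ERT2 vehicle and TFEB-ERT2 4-OHT. TFEB-ERT2 vehicle lay below all other libraries, and the response difference was 0.96 ± 0.23 (limma adjusted p = 0.00258). In 4-OHT the TFEB-ERT2 libraries lay below the Vector libraries, by a difference that did not pass the test (limma adjusted p = 0.192).

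Bcl2, an inhibitor of apoptosis (chr1:106538178-106714274), remained far apart between lines throughout. It had 13.3, 39.3 and 7.84 normalized counts in Vector vehicle, 20.4, 56.9 and 14.4 in Vector 4-OHT, 2052, 2373 and 2021 in TFEB-ERT2 vehicle, and 1145, 851 and 954 in TFEB-ERT2 4-OHT. TFEB-ERT2 cells were 125-fold higher in vehicle and 36.6-fold higher in 4-OHT. The response difference of Bcl2 was −1.77 ± 0.56 (limma adjusted p = 0.0272). That call was lost without Vector vehicle 1 or 3, Vector 4-OHT 2, any 1 of the TFEB-ERT2 vehicle libraries, or TFEB-ERT2 4-OHT 2 or 3, with adjusted p-values of 0.0526 to 0.129. Tfeb also counted as closing, with a response difference of −1.19 ± 0.21 (limma adjusted p = 0.000113), a start 6.83-fold higher and an end 2.99-fold higher in TFEB-ERT2 cells. Other closing genes with large differences were Mgarp (−2.97), Fam183b (−2.39) and Rgs9 (−1.58) on the negative side, and Cpeb1 (3.53), Pfn2 (an actin-binding profilin, 3.28), Rgs10 (2.69) and Mbp (2.13) on the positive side. Without the 3 libraries that stood apart, the response difference of Fam183b was −1.70 (adjusted p = 0.0611) and the response difference of Rgs9 −1.14 (adjusted p = 0.103). The response difference of Mbp lost its call without Vector vehicle 2, Vector 4-OHT 1, TFEB-ERT2 vehicle 2 or TFEB-ERT2 4-OHT 2 (adjusted p = 0.064 to 0.0847). Cpeb1 had 3.43, 0 and 0 in TFEB-ERT2 vehicle, so its size depends on the pseudocount: the response difference of Cpeb1 was 1.44 with a pseudocount of 10 (adjusted p = 0.0574), and its call was also lost with quantile normalization (0.0963). Likewise, the response difference of Rgs10 lost its call with DESeq2 (adjusted p = 0.129) and with no variance trend (0.184).

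Mtor, the kinase of mTORC1 (chr4:148448611-148557683), was one of the 66 widening genes that crossed the Vector level. It had 12671, 11846 and 12806 normalized counts in Vector vehicle, 13107, 11737 and 13998 in Vector 4-OHT, 6777, 6271 and 6457 in TFEB-ERT2 vehicle, and 26203, 25000 and 25962 in TFEB-ERT2 4-OHT. No TFEB-ERT2 library overlapped a Vector library, and the 2 TFEB-ERT2 groups lay on opposite sides. The response in TFEB-ERT2 cells was 3.96-fold, but they had started 1.91-fold below Vector cells and ended 1.99-fold above them, so about an equal share of the log2 response lay on each side of the Vector level. The response difference was 1.93 ± 0.11 (limma adjusted p = 3.77e-14). Nyx (nyctalopin, 4.52), Pcyt1a (a rate-limiting enzyme of phosphatidylcholine synthesis, 4.04) and Plk2 (a polo-like kinase, 6.65) crossed in the same direction from lower starts. Galns, a lysosomal sulfatase, and Optn, an autophagy receptor, did so too, with response differences of 2.66 and 3.21. Robo2, a guidance receptor, crossed the other way (−3.15), from 743, 598 and 829 in TFEB-ERT2 vehicle, above Vector vehicle at 333, 350 and 411, to 39.8, 114 and 71.8 in TFEB-ERT2 4-OHT, below Vector 4-OHT at 228, 401 and 337.

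Other widening genes moved farther on the side where they started. Adam19, a membrane metalloprotease (chr11:46055992-46147343), had 3258, 2865 and 2869 in Vector vehicle, 3354, 3034 and 3244 in Vector 4-OHT, 1625, 1417 and 1324 in TFEB-ERT2 vehicle, and 246, 124 and 179 in TFEB-ERT2 4-OHT. The groups formed 3 separate levels, with the Vector groups overlapping, then TFEB-ERT2 vehicle, then TFEB-ERT2 4-OHT. The response difference was −3.13 ± 0.21 (limma adjusted p = 5.25e-13). Cst7, an inhibitor of lysosomal cysteine proteases, formed such steps upward, with 76.7, 107 and 167, then 112, 74.7 and 44.8, then 201, 223 and 379, then 3476, 3226 and 3396 in the same order of groups, and had a response difference of 4.32 ± 0.39 (limma adjusted p = 4.42e-10). Xbp1, a transcription factor of the unfolded protein response, Rragd, a Rag GTPase that recruits mTORC1 to lysosomes, and Abcg1, a cholesterol exporter, stepped up likewise. Their starts were 1.55-fold, 1.38-fold and 1.56-fold higher in TFEB-ERT2 cells and their ends 4.88-fold, 3.51-fold and 3.66-fold higher. Tfrc, the transferrin receptor, and Siglecg, an inhibitory B cell receptor, stepped down, with response differences of −0.96 and −2.86.

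The undecided class holds mostly weakly expressed genes, among them some that were at or near 0 in the other 3 groups. Fam46c, a plasma cell gene, had 0.737, 1.57 and 0.871 in Vector vehicle, 9.66, 3.56 and 0 in Vector 4-OHT, 0 in each TFEB-ERT2 vehicle library, and 3101, 3146 and 3414 in TFEB-ERT2 4-OHT. Ccl3, a chemokine, was likewise at 0 in each TFEB-ERT2 vehicle library and had 1494, 1666 and 1774 in TFEB-ERT2 4-OHT. A library at 0 could hold up to 3 reads, which is at most 4.15 normalized counts in these libraries. Against that floor, and from the lowest 4-OHT library, Fam46c was at least 748-fold and Ccl3 at least 360-fold higher in 4-OHT. The fitted response differences of 10.81 and 10.72 depend on the added pseudocount and are no bound. Such genes had passed the filter on low values only through the group where they are high. Where such genes belong to a gene list described below, they enter its tested and its called count by the same values. Angptl2 (9.84), Pmel (a melanosome protein, 9.15) and Mylk4 (7.92) followed, and Gp49a (9.69) is uncertain because it has a near-identical neighbour. On the negative side stood Heyl (a Notch target, −5.12), Acot1 (−5.10), B3gnt8 (−4.35), Blk (a B cell receptor kinase, −4.16), Tmem255a (−3.84) and Pdzd2 (−3.42). Mylk4 lost its call for the response difference with DESeq2 and with no variance trend. Blk and Pdzd2 each lost theirs with no variance trend.

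In 76 of the 2066 genes the response difference passed although neither response did, and in each of these the 2 fitted responses pointed in opposite directions. That selection itself favours opposite directions, because responses in the same direction partly cancel in their difference. The median sizes of the fitted responses were 0.247 in TFEB-ERT2 cells and 0.305 in Vector cells on the log2 scale. The following examples were chosen after their values were seen. Pcna, the sliding clamp of DNA replication, had 3796, 3282 and 3650 in Vector vehicle, 4462, 3880 and 4451 in Vector 4-OHT, 3174, 3700 and 3407 in TFEB-ERT2 vehicle, and 2964, 2900 and 2951 in TFEB-ERT2 4-OHT. Each line's 4-OHT group lay outside its own vehicle range, upward in Vector cells and downward in TFEB-ERT2 cells, and the response difference was −0.47 ± 0.12 (limma adjusted p = 0.00557). Plxnd1, a semaphorin receptor, had 502, 673 and 765, then 357, 473 and 301, then 1239, 917 and 847, then 1369, 1226 and 1329 in the same order, and its response difference of 1.18 ± 0.23 (limma adjusted p = 0.000254) held a Vector response of −0.78 and a TFEB-ERT2 response of 0.40.

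The 2 genes with a called Vector response did not differ in response between lines past the threshold. Tgfb3, a TGF-beta ligand, had 771, 1595 and 1567 in Vector vehicle, 26.8, 820 and 12.7 in Vector 4-OHT, 1105, 1228 and 1275 in TFEB-ERT2 vehicle, and 68.9, 20.7 and 22.3 in TFEB-ERT2 4-OHT. It was low in all TFEB-ERT2 4-OHT libraries and in 2 of 3 Vector 4-OHT libraries, with Vector 4-OHT 2 apart from its group. The response difference was −0.997 ± 1.04 (limma adjusted p = 0.641), with a Vector response of −4.20 (limma adjusted p = 0.035). Tspan13, a tetraspanin, fell by 0.77 in Vector cells and by 1.31 in TFEB-ERT2 cells on the log2 scale, and its response difference was −0.54 ± 0.20 (limma adjusted p = 0.0618). That result was close to the threshold. The response difference of Tspan13 passed in 8 alternatives, among them upper-quartile scaling, array weights, a replicate block and leaving out Vector vehicle 2 or Vector 4-OHT 3. Both are named because they are the whole of the Vector calls. Myc, present here also as the Eµ-Myc transgene, and Esr1, the estrogen receptor, did not pass for the response difference, at −0.16 ± 0.12 (limma adjusted p = 0.456) and −0.71 ± 0.39 (limma adjusted p = 0.272).

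Gene lists were described by counts and medians beside those of all tested genes, of which 15.8% were called and whose median response difference was −0.03. Among 45 tested lysosomal hydrolases, 27 were called with positive and 1 with negative differences (62.2%), and the list median was 0.97 with medians of 0.81 in TFEB-ERT2 and −0.03 in Vector cells. Per library, the list median relative to Vector vehicle was −0.14 to −0.03 in Vector 4-OHT, −0.14 to −0.04 in TFEB-ERT2 vehicle and 0.77 to 0.89 in TFEB-ERT2 4-OHT. Of the 28 called hydrolases 21 had like starts. Lgmn, an asparaginyl endopeptidase, rose most among the like ones, from 1224, 1370 and 1053 to 8712, 8681 and 8569 in TFEB-ERT2 cells, whereas it had 1202, 1327 and 1299 in Vector vehicle and 1123, 1223 and 1030 in Vector 4-OHT (response difference 3.02 ± 0.14). Sgsh, a heparan sulfatase, started 3.50-fold lower in TFEB-ERT2 cells, ended 2.84-fold higher, and had a response difference of 3.31 ± 0.71. The hydrolase called negative was Ppt1, a palmitoyl thioesterase, at −0.54.

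V-ATPase subunits were called positive in 9 and negative in 0 of 15 tested members (60.0%, median 0.74), and lysosomal membrane proteins positive in 11 and negative in 1 of 33 (36.4%, median 0.60). Without the 3 libraries that stood apart, 7 membrane proteins were called positive. Laptm5, a lysosomal membrane protein of blood cells, led that list at 2.24 ± 0.12, and Atp6v0a1 led the pump at 1.47 ± 0.26. Autophagy genes were called positive in 15 and negative in 2 of 47 (36.2%, median 0.13; 1 negative without any 1 of Vector vehicle 1 or 2, Vector 4-OHT 2, TFEB-ERT2 vehicle 1, or TFEB-ERT2 4-OHT 2 or 3), with Optn (3.21), Ncoa4 (the ferritin receptor of autophagy, 2.02) and Tecpr1 (1.64) ahead. Members of mTORC1 and its Rag GTPase regulators were called in both directions, 9 positive and 5 negative of 36 (38.9%, median 0.03), with 3 negative calls without Vector vehicle 3 or without TFEB-ERT2 4-OHT 3 and 2 with no variance trend. Beside Mtor and Rragd, the folliculin complex genes Fnip1 (1.30 ± 0.18) and Flcn (1.22 ± 0.19) were positive, both with like starts.

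**Figure D4:**
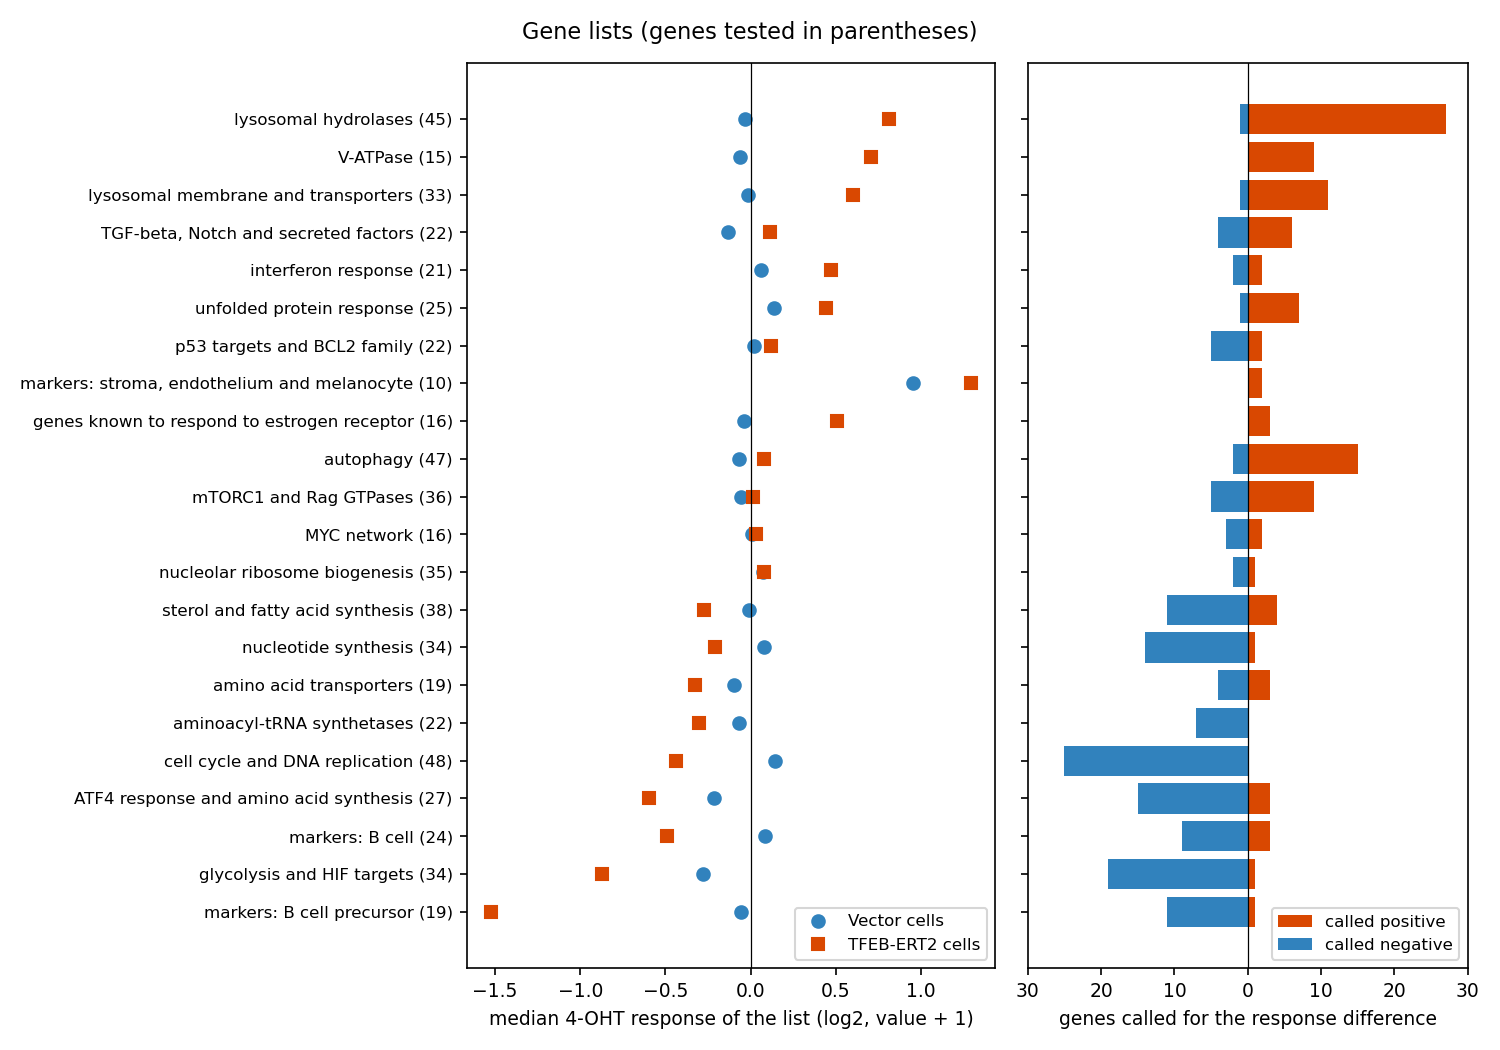
For each gene list with at least 10 tested members, the left panel gives the median log2 response of Vector cells (circles) and TFEB-ERT2 cells (squares), and the right panel the number of members called with positive or negative response differences. Lysosomal hydrolases had the most positive calls, 27, and cell cycle genes the most negative calls, 25. Lists are ordered by median response difference, from 0.97 for lysosomal hydrolases to −1.54 for B cell precursor markers.

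Cell cycle and DNA replication genes were called negative in 25 and positive in 0 of 48 (52.1%, median −0.49), all 25 with like starts. The median response was −0.44 in TFEB-ERT2 cells and 0.14 in Vector cells, and E2f2, an activator of S phase genes, led at −1.80 ± 0.14. Nucleotide synthesis genes were called negative in 14 and positive in 1 of 34 (44.1%), with Tk1 (thymidine kinase, −1.13) and Dck (deoxycytidine kinase, −1.02) among the former and Adssl1 (2.56) as the latter. Aminoacyl-tRNA synthetases were called negative in 7 and positive in 0 of 22 (31.8%), and Cars (−0.84) led. Nucleolar ribosome biogenesis genes were called in 3 of 35 (8.57%), 2 negative and 1 positive, with a median of −0.04. The positive count was 0 with edgeR, with no variance trend, without Vector vehicle 1 or 3, Vector 4-OHT 1 or 2, TFEB-ERT2 vehicle 2, or TFEB-ERT2 4-OHT 1 or 2, and 2 without Vector 4-OHT 3. With no variance trend 9 nucleotide synthesis genes and 4 aminoacyl-tRNA synthetases were called negative.

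Genes of glycolysis and of the hypoxia factor HIF were called negative in 19 and positive in 1 of 34 (58.8%, median −0.70). Their start was not level, with a median 0.29 higher in TFEB-ERT2 vehicle than in Vector vehicle, and the Vector median response was −0.28. The latter rested on 1 library: relative to Vector vehicle the list median was −0.08, −0.05 and −0.55 in Vector 4-OHT 1, 2 and 3. Ankrd37, a HIF target, had 1922, 1708 and 747 in these 3 libraries, 1549, 2166 and 1602 in Vector vehicle, 2307, 2491 and 2087 in TFEB-ERT2 vehicle, and 413, 161 and 283 in TFEB-ERT2 4-OHT (response difference −2.72 ± 0.34). Vector 4-OHT 3 was thus low for its group yet above every TFEB-ERT2 4-OHT library. Negative calls numbered 22 without Vector 4-OHT 3, 16 without the 3 libraries that stood apart and 9 when limma was fitted with no variance trend. Eno3, an enolase, was the positive call (2.00 ± 0.23), and there were 2 positive calls without Vector vehicle 3, Vector 4-OHT 2 or TFEB-ERT2 vehicle 2.

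ATF4 response and amino acid synthesis genes were called negative in 15 and positive in 3 of 27 (66.7%, median −0.51), with Cth (−2.36), Chac1 (−2.29) and Trib3 (−2.06) negative and Atf5 positive (3.27). Vector 4-OHT 3 was low here too, with a list median of −0.40 against −0.10 and −0.15 in the other libraries of its group. Amino acid transporters were called positive in 3 and negative in 4 of 19 (36.8%), among them Slc1a5, a glutamine transporter (1.06), and Slc1a4, a neutral amino acid transporter (−1.35). Sterol and fatty acid synthesis genes were called negative in 11 and positive in 4 of 38 (39.5%, median −0.26), with 2 positive with no variance trend. The median start of this list was 0.19 higher in TFEB-ERT2 cells, 4 of the 15 calls were closing, and Fads1, a fatty acid desaturase, had 737, 810 and 653 in Vector vehicle, 814, 884 and 772 in Vector 4-OHT, 1146, 1053 and 1225 in TFEB-ERT2 vehicle, and 633, 665 and 573 in TFEB-ERT2 4-OHT. Insig1, which retains the sterol sensor in the endoplasmic reticulum, was positive at 1.18 ± 0.19.

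Unfolded protein response genes were called positive in 7 and negative in 1 of 25 (32.0%, median 0.25), led by Xbp1 (1.66) and Edem1, which helps clear misfolded glycoproteins (1.31). With no variance trend 3 were positive and 0 negative, and with array weights 11 were positive. The negative call was lost without Vector vehicle 3, Vector 4-OHT 1 or 3, TFEB-ERT2 vehicle 1 or 3, or TFEB-ERT2 4-OHT 3. The TFEB-ERT2 response of this list passed upward in 17 members, with a median of 0.44, while the Vector median was 0.14 and reached 0.27 in Vector 4-OHT 3. MYC network genes were called positive in 2 and negative in 3 of 16, with Mxd1 (4.58) and Mxi1, another MAX partner (−1.20), in opposite directions. The positive count was 1 with no variance trend and without Vector vehicle 2 or 3, Vector 4-OHT 2, TFEB-ERT2 vehicle 1 or TFEB-ERT2 4-OHT 2. In the list of p53 targets and BCL2 family genes 2 were positive and 5 negative of 22, although the list median was 0.24, and with no variance trend 1 was positive and 2 negative. Bcl2l1, the gene of the survival protein BCL-XL, was among the negative at −2.83 ± 0.17, with 1224, 1263 and 1395 in TFEB-ERT2 vehicle and 171, 191 and 210 in TFEB-ERT2 4-OHT, while Vector cells had 1419, 1374 and 1461 in vehicle and 1635, 1341 and 1496 in 4-OHT.

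Interferon response genes were called in 4 of 21 (19.0%), Gbp3 (−1.94) and Gbp2 (−1.92) negative and Ddx58 (1.04) and Ifih1 (3.80) positive. No positive call was present without TFEB-ERT2 4-OHT 1, without the 3 libraries that stood apart or with no variance trend, and 1 was present without Vector vehicle 2, Vector 4-OHT 2 or 3, or TFEB-ERT2 4-OHT 2 or 3. TGF-beta, Notch and secreted factor genes were called positive in 6 and negative in 4 of 22 (45.5%), and without those 3 libraries positive in 2 and negative in 5. With all 12 libraries, 6 of the calls for this list had undecided starts. Genes known to respond to the estrogen receptor were called positive in 3 of 16 (18.8%) and negative in 0, or 1 without TFEB-ERT2 vehicle 1; the positive ones were Ctsd, Sgk3 (1.10) and Myb (0.81). Their Vector median response was −0.04.

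B cell precursor markers were called negative in 11 and positive in 1 of 19 (63.2%, median −1.54), with 2 positive without Vector 4-OHT 2. Rag1 had 1216, 1366 and 1728 in Vector vehicle, 979, 1172 and 647 in Vector 4-OHT, 1218, 1408 and 1169 in TFEB-ERT2 vehicle, and 124, 89.1 and 70.8 in TFEB-ERT2 4-OHT. Vpreb3, a chaperone of the precursor receptor, had 4863, 5845 and 6522, then 5993, 5771 and 5486, then 5774, 6564 and 6443, then 1036, 927 and 991 in the same order. In both genes the TFEB-ERT2 4-OHT libraries lay below the 9 others, with response differences of −3.11 ± 0.26 and −2.68 ± 0.13. The summed level of the precursor markers was 98602 to 110642 in Vector vehicle, 102395 to 107862 in Vector 4-OHT, 105933 to 109618 in TFEB-ERT2 vehicle and 75144 to 78646 in TFEB-ERT2 4-OHT. B cell markers were called negative in 9 and positive in 3 of 24 (median −0.57), with Ikzf3 (−1.61 ± 0.12) and Pax5 (the B lineage factor, −1.32 ± 0.14) lower and Btk, Blnk and Cd37 higher, at 0.71, 0.65 and 0.59. Positive calls numbered 5 without Vector 4-OHT 3 and with DESeq2. Their sum moved little, at 59893 to 63543 in TFEB-ERT2 vehicle and 58166 to 61807 in TFEB-ERT2 4-OHT. Plasma cell markers were called positive in 5 and negative in 1 of 9, including Xbp1 and Fam46c upward and Slamf7 downward (−1.21). Undecided starts were held by 2 of these called markers, Fam46c among them. The positive count was 3 without any 1 of the TFEB-ERT2 4-OHT libraries, and also without the 3 libraries that stood apart.

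Marker lists of other cells were small after the filter. T and NK cell markers were called positive in 2 of 9, the cytotoxic gene Prf1 and the receptor chain Cd247, and their summed level was 913 to 1180 in Vector and 1445 to 1974 in TFEB-ERT2 libraries, while Cd3e did not exceed 20.2. The response difference of Prf1 lost its call without Vector vehicle 3 (adjusted p = 0.0636) or TFEB-ERT2 4-OHT 3 (0.0642). The response difference of Cd247 lost its call without any 1 of 8 libraries, among them Vector vehicle 2 (adjusted p = 0.14) and TFEB-ERT2 vehicle 2 (0.134). The single mast cell, basophil and erythroid marker tested was not called. Myeloid markers were called negative in 1 of 4, Mrc1 (−2.27), with 16 more below the filter and a summed level of 90.4 to 282 over all libraries. Stroma, endothelium and melanocyte markers were called positive in 2 of 10, Pmel and Trpm1, both with undecided starts. This list summed to 848 to 1113 in all groups but TFEB-ERT2 4-OHT, which had 2243 to 2725. The response difference of Trpm1 was not called by edgeR (adjusted p = 0.101) or DESeq2 (0.536). The melanocyte genes Tyr, Dct and Mlana did not exceed 15.0 normalized counts in any library, and Tyrp1 reached 23.2 in its highest, a TFEB-ERT2 4-OHT library. Any part of cells of these kinds in the response differences was not tested.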

How the data were processed

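Total RNA of 12 samples, 3 in each of 4 groups, was sequenced after library preparation with NuGEN's Ovation kit for mouse, per the labels' protocols. As deposited, each value is a signal for 1 gene in 1 library: a read count that the authors divided by that library's size factor, as the values show. In each library 100% of the values were whole multiples, within 0.001, of the value of 1 read, so whole reads were recovered. STAR 2.5.3, HTSeq 0.6.1, DESeq2 1.6.3 and mm10 appear in the submitters' processing notes. What each did, the annotation, filters and strand setting were not given in the sources used here. Overlapping and antisense genes therefore cannot be told apart.

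From these values log2(value + 1) was computed, and limma 3.58.1 (R 4.3.3) with a variance trend was run on the 12 libraries with a mean for each group and 8 residual degrees of freedom. Genes had to reach 10 in 3 or more libraries, and p-values were adjusted by Benjamini-Hochberg over the 13111 that did. Just inside this filter were 1700029I15Rik and Pax6, whose third-highest library was at 10.1, and just outside were Foxp3 and Oasl2 at 9.70. Alternatives included edgeR 4.0.16 and DESeq2 1.42.0 on whole reads, with scripts tested on simulated data. Comparisons share libraries, so overlaps between them are partly built in and are given as descriptions only. Depth of 11849029 to 22109283 reads per library sets a floor of 3 reads, 2.21 to 4.15 normalized counts, and floors cover counting error only.

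Named genes were Tfeb, Esr1 and Myc and those that follow. Among called genes with a mean of at least 100 and no predicted symbol, like starts gave the 10 largest differences in each direction. Under the same limits, each other class gave the 6 largest in each direction. Without these limits, each of 26 gene lists (746 entries, 731 listed in the data) gave up to 4 called members with the largest differences. The comparison, these rules and the lists were chosen with earlier results of these data known. Further list members are named with their values, and genes said to be chosen after seeing values fall outside the rule. Gene positions are from GENCODE vM21 (GRCm38) and promoters from RefSeq (GRCm38.p6), matched by symbol.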

Additional observations from a re-analysis of the deposited data

Results flagged for a closer look

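The response to 4-OHT differed between TFEB-ERT2 and Vector cells, by a test of the difference itself, in 1016 genes with a more positive and 1050 genes with a more negative response in TFEB-ERT2 cells. With 3 samples in a group, no test for a single sample far from its group was made.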

How the results depend on the processing

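The 2066 called genes kept their fitted direction in every alternative in which they were tested, 1440 remained called whichever single library was left out, and 1061 in every alternative. A gene that a setting did not test was counted there as not called, and likewise as not keeping its class. With 1 library left out, positive calls numbered 833 to 1025 and negative calls 906 to 1085. Without a variance trend there were 681 negative calls in place of 1050. Called genes with like starts numbered 1352 to 1581 with 1 library left out, and edgeR gave no such count because it has no interval for the start. The count with unlike starts depended most on the settings: it was 304, and became 90 without a variance trend, 527 with array weights, 548 with DESeq2 and 139 when an unlike start also had to be at least 1.5-fold. It was 175 to 364 with 1 library left out, with 182 without Vector vehicle 2, 175 without Vector vehicle 3 and 189 without TFEB-ERT2 vehicle 2. The cause was not tested. Class membership was less stable than the calls: of 152 closing genes 60, and of 152 widening genes 44, kept their class whichever library was left out, against 1414 of 1574 with like starts.

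With a replicate block 1029 genes were positive and 1065 negative. After the group mean of each gene was subtracted, same-numbered samples of different groups correlated at −0.54 to 0.67. Of these 18 pairs 4 exceeded 0.1, so the numbers were not treated as pairs. The settings without the 3 libraries that stood apart (826 positive, 885 negative) and with a mean of at least 200 (998 and 1099) were chosen after seeing the data. Over the 151 named genes, 3596 alternative values had the same side of the threshold, 125 lost and 8 gained a call, and none reversed. The 8 gained calls were all for Tspan13. Depth limits weakly expressed genes, whose starts were mostly undecided.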
